A study of Mus musculus with 2 samples.

Results

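Venous endothelial cells are the lining cells of the brain's post-capillary venules and veins. They were taken here as droplet barcodes with at least 4 of 6 endothelial genes (Cldn5, Ly6c1, Pecam1, Flt1, Cdh5 and Slco1a4) and at most 1 of 5 mural cell genes (Kcnj8, Abcc9, Higd1b, Acta2 and Myh11). Haemoglobin had to stay under 1% of UMIs. They also had at least 2 of 5 venous genes (Vwf, Slc38a5, Nr2f2, Il1r1 and Ackr1) and more of these than of 5 arterial genes (Bmx, Gkn3, Sema3g, Hey1 and Fbln5). A gene counted as present with 1 UMI, a uniquely tagged RNA molecule. The rule found 410 members among 13466 kept barcodes, 1619 of which met its endothelial part. Members were thus chosen by measured UMIs of these 21 genes and 4 haemoglobin genes. The control library gave 175 of them and the cKO library 235.

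The series asked how loss of the guidance receptor Plexin-B2 in tumour-associated myeloid cells alters a brain with a glioblastoma graft. Both hosts were C57BL/6 mice given intracranial KR158 cells, a mouse glioblastoma line, and both carried Cx3cr1 CreER/+, a tamoxifen-activated Cre under the control of a myeloid gene. The control host was Plxnb2 fl/+, a floxed heterozygote whose title reads WT, and the cKO host was Plxnb2 fl/fl. Tamoxifen at 100 mg/kg ran every other day from 3 days before grafting to 8 weeks after it, and tissue within about 1 mm of the injection site was dissociated with papain. Endothelial cells are not the intended Cre target. There was 1 library per genotype, so no test between genotypes was possible, and genotype, animal and library cannot be told apart. Every interval below is a 95% interval for counting error only.

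Brain endothelium changes along the vessel, from arteries through capillaries to venules and veins. Capillary cells are rich in nutrient transporters. Venules are the main site where leukocytes adhere and cross, through adhesion molecules such as VCAM-1 and ICAM-1, and venous cells carry receptors for inflammatory cytokines. The transcription factor COUP-TFII, encoded by Nr2f2, helps to set venous identity, and Vwf encodes the platelet-binding von Willebrand factor.

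Promoters of genes induced by interferon, a cytokine signal of viral and sterile inflammation, often hold the interferon-stimulated response element. A pair of these promoters is printed because interferon genes were the largest group of listed genes higher in cKO venous cells. Windows run from 250 bases before to 50 after the RefSeq start site, on GRCm38.p6. The Ifit3 window is chr19:34583279-34583578 (plus strand) and the Isg15 window chr4:156200769-156201068 (minus strand), each printed in the direction of transcription. Capitals mark matches on either strand to GAAANNGAA, the core of that element.
Ifit3: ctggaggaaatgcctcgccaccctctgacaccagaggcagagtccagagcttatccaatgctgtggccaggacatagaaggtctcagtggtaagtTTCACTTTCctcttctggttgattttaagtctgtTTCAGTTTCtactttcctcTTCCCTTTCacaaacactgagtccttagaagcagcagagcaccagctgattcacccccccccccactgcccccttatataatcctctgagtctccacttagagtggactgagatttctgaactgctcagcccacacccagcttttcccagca
Isg15: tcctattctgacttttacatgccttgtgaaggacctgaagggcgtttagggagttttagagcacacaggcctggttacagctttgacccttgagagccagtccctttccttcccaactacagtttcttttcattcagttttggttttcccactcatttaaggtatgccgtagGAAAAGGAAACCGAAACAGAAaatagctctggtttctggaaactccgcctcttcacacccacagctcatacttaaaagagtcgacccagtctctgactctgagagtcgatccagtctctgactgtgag
The first bases of the matches lie at -155, -121 and -102 from the start site in Ifit3, all on the opposite strand, and at -78, -72 and -66 in Isg15, where the matches overlap. Of 32851 RefSeq promoters, 8.56% held such a match. By gene, 16 of 24 measured interferon genes with an entry had one, 13 of the 19 higher in cKO venous cells and 3 of the 5 that were not, against 9.76% of 27025 genes. A match describes the sequence and is no evidence of binding.

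Venous cells were 2.17% of kept control cells (1.86 to 2.51) and 4.35% of kept cKO cells (3.82 to 4.93). Of the endothelial cells they were 23.6% (20.6 to 26.8) and 26.8% (23.9 to 29.8), so their share among endothelial cells differed less than their share among all cells, and those intervals overlap. Barcodes of the control matrix had been filtered by the authors, unlike those of the cKO matrix, which can shift shares of all cells. Kept barcodes shared by both libraries numbered 8, none of them venous. Venous cells were deep, with medians of 9598 and 10582 UMIs, against 4036 and 4293 in capillary and 8380 and 10452 in arterial endothelial cells. Capillary cells were those with no venous and no arterial gene (144 and 150), and arterial cells those with at least 2 arterial genes and more of these than venous genes (135 and 164). A deeper cell shows more genes of any list, so depth enters the rule: applied after each cell was thinned to 2000 UMIs, it called 9.13% and 10.9% of endothelial cells venous.

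Just outside the rule lay 299 control and 368 cKO endothelial cells with 1 venous gene, and 22 and 37 with at least 2 but no more than their arterial genes. Just inside it, 102 and 112 members had 2 venous genes. Another 48 and 62 had 3, and 25 and 61 had 4 or 5. Members with 4 or 5 were thus 14.3% (9.46 to 20.4) of control and 26.0% (20.5 to 32.1) of cKO venous cells. Members with at least 3 were 41.7% (34.3 to 49.4) and 52.3% (45.7 to 58.9). Thinned to 2000 UMIs, members with at least 3 venous genes were 8.14% (4.52 to 13.3) and 6.47% (3.66 to 10.4), without the excess in the cKO library. These rest on 14 and 15 cells. At least 2 venous genes remained after thinning in 24.4% (18.2 to 31.5) and 28.9% (23.1 to 35.2), and at least 4 in 2 and 1 cells. An arterial gene was also detected in 26.9% of control and 30.2% of cKO members.

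The genes of the rule describe the members and are not findings. Vwf had 372 CPM (UMIs summed over members and scaled to a total of 1e+06) in control and 582 CPM in cKO cells, and a UMI in 91.4% and 94.0% of them. It was also found in arterial cells, at 291 and 286 CPM, and in endothelial cells with 1 venous gene, at 275 and 301 CPM. Capillary cells lack it by definition. Slc38a5, a glutamine transporter gene of the venous end, had 137 and 187 CPM in venous cells and 5.81 and 4.25 CPM in arterial cells. Nr2f2 had 139 and 100.4 CPM against 20.3 and 7.44 CPM in arterial cells. Il1r1, the interleukin-1 receptor, had 73.6 and 94.5 CPM against 2.18 and 3.72 CPM. Ackr1, the chemokine-scavenging receptor of venules, was nearly absent, with 1 and 17 UMIs in all, from 1 and 11 cells. After thinning to 2000 UMIs, Slc38a5 was found in 20.9% and 23.7% of venous cells, and in 0.10% and 0% of oligodendrocyte-marked cells, which should lack it. The commonest pairs were Vwf with Nr2f2 (24.0% and 12.8% of members) and Vwf with Slc38a5 (19.4% and 20.4%). All of Vwf, Slc38a5, Nr2f2 and Il1r1 without Ackr1 were detected in 13.7% and 21.7%.

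**Figure D1:**
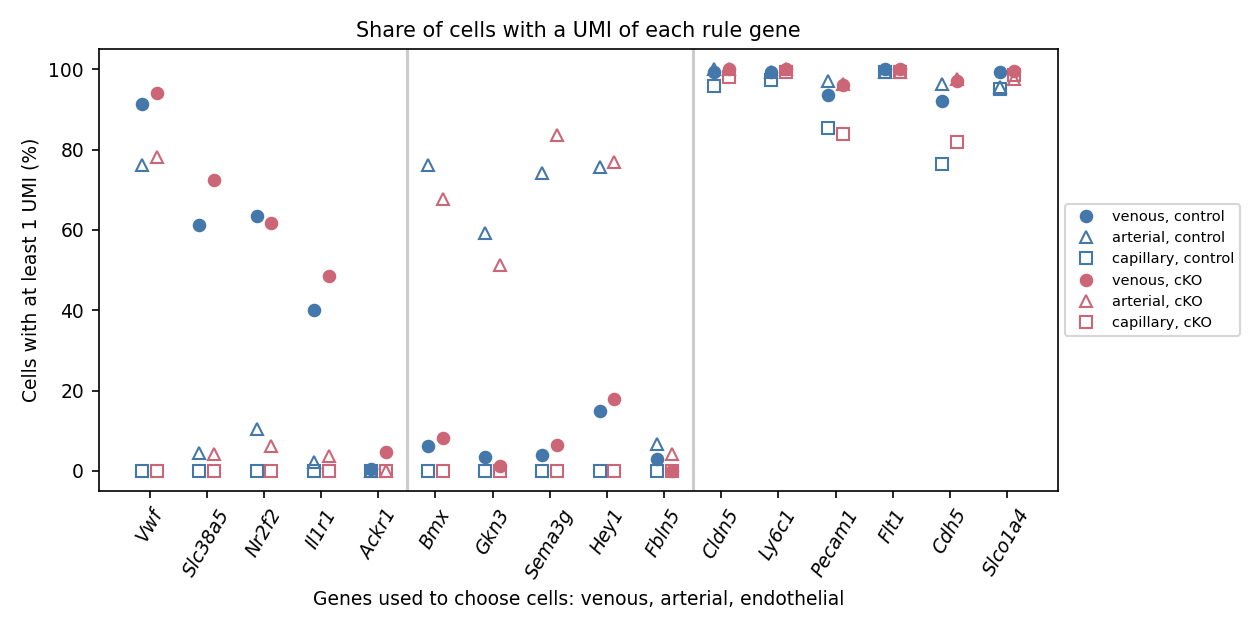
Share of cells (percent) with at least 1 UMI of each gene of the rule, in venous, arterial and capillary endothelial cells of both libraries. Vwf is found in 91.4% and 94.0% of venous cells and in 76.3% and 78.0% of arterial cells, while capillary cells are at 0 for venous and arterial genes by definition.

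Genes outside the rule were compared between venous and capillary cells in each library, as a description, since the classes were cut on the expression of the same cells. A gene counted as different at 2-fold or more in both libraries with both intervals excluding equality. Of 6178 genes with enough counts, 27 were higher in venous cells (0.437%) and 134 lower (2.17%). The higher genes included an adhesion molecule, a clotting factor and a Wnt ligand. Vcam1 (ENSMUSG00000027962, mm10 chromosome 3, 116109949 to 116129688, minus strand) encodes an endothelial ligand of leukocyte integrins. It had 194 CPM in venous and 27.3 CPM in capillary control cells, and 321 against 14.6 CPM in cKO cells. Wnt5a, a non-canonical Wnt ligand, had 121 against 10.6 CPM and 194 against 25.2 CPM. Both were higher in venous cells of both libraries, and the counting intervals of the classes did not overlap.

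F5, coagulation factor V, had 97.9 CPM in venous and 6.06 CPM in capillary control cells. In the cKO library it had 46.9 CPM, from 149 UMIs, and no capillary UMI, a log2 ratio of at least 3.56 against a floor of 3 counts in the capillary sum. Cyp2e1, a cytochrome P450, had 107 CPM against 1.52 CPM, which is 1 UMI, and 55.4 CPM against none (at least 3.80). Cyp2e1 was not seen in arterial cells of either library. Other genes named by rank were Flrt2 (log2 ratios 1.96 in control and 2.40 in cKO), Fxyd6 (2.14 and 1.40), Tmem64 (1.83 and 1.62), Ctsc (1.41 and 1.43), Net1 (1.28 and 1.21) and Tgm2 (1.13 and 1.42). Ctsc encodes the protease cathepsin C and Tgm2 a transglutaminase. Against arterial cells, where 0.568% of 6158 genes were higher in venous cells, Wnt5a, Flrt2, Fxyd6, Net1, Ctsc, Cyp2e1 and F5 were past the same fold, while Vcam1, Tmem64 and Tgm2 were not.

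**Figure D2:**
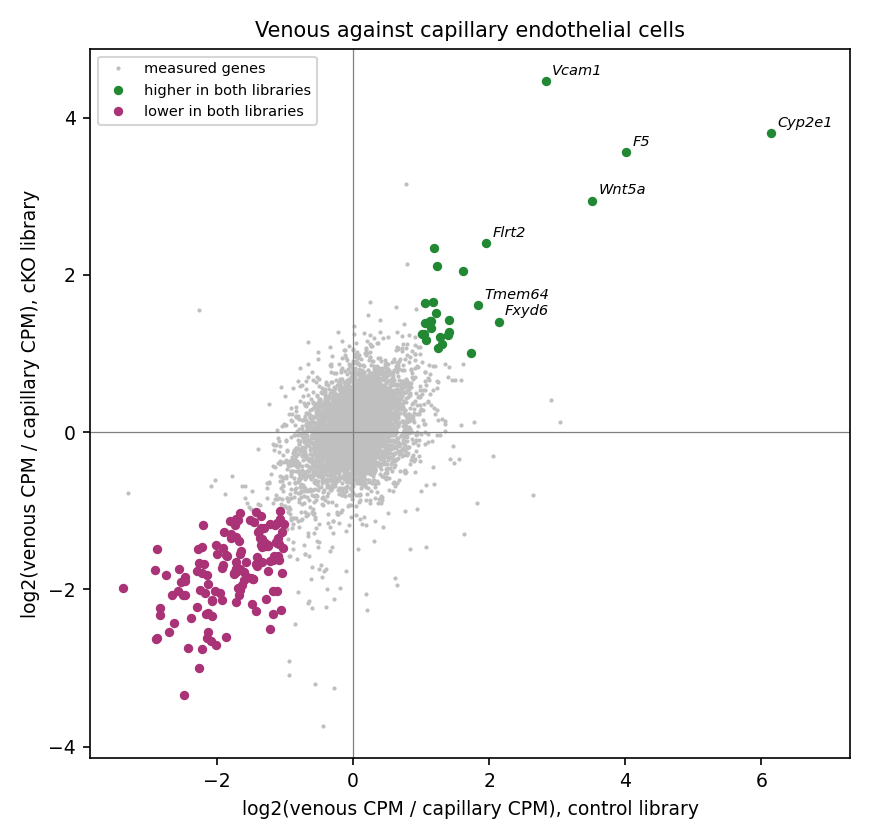
Each point is a gene outside the rule, with its log2 ratio of venous over capillary cells in the control library on the x axis and in the cKO library on the y axis. Named genes higher in both libraries lie at the upper right; F5 and Cyp2e1 had no capillary UMI in the cKO library, so their y values are lower bounds.

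The genes with the lowest ratios against capillary cells included transcripts of other brain cells: Tspan2, Mobp, Cnp and Mog of oligodendrocytes, Rorb and Pla2g7 of astrocytes, and Gria2 of neurons and glia. Mobp, a myelin protein gene, had 43.2 CPM in venous and 282 CPM in capillary control cells. The 10 oligodendrocyte markers summed to 1727 CPM in venous and 6983 CPM in capillary control cells, and to 1660 and 4224 CPM in the cKO library. The 7 choroid plexus markers went the other way in the control library, at 39969 CPM in venous and 4106 CPM in capillary cells. In the cKO library they were at 97.3 and 163 CPM. The part of choroid plexus RNA in the higher venous genes was not tested. Without cells that held at least 60% of another class's marker list, 25 genes were higher in venous cells (0.429% of 5831) and 14 lower (0.24%).

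Listed zonation genes followed the label in part. Of 22 venous genes outside the rule, 13 were measured, and 4 were higher in venous than in capillary cells, among them Vcam1, Ctsc and Nrp2, and none lower. Their median log2 ratios were 0.87 (control) and 0.90 (cKO), against 0.01 and 0.03 over all genes. Nrp2, a semaphorin and VEGF co-receptor of veins and lymphatics, had 103 against 45.5 CPM and 101 against 19.9 CPM. Of 14 capillary genes none was lower, and their median was 0.36 in both libraries. Mfsd2a, the lipid transporter of barrier capillaries, had log2 ratios of -0.61 and -0.60. Of 18 arterial genes, 8 of 14 measured were lower than in arterial cells (median -1.86 in the control, against -0.05 over all genes, where 0.926% of 6158 were lower). Among them, Mgp, matrix Gla protein, had 13.8 CPM in venous and 335 CPM in arterial control cells, and Alpl, alkaline phosphatase, 63.0 and 393 CPM. By these lists the members had lower arterial genes than arterial cells and some higher venous genes than capillary cells, with no capillary gene lower. The leukocyte selectin genes Selp and Sele were too low to be measured.

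Within the members, other genes changed with the number of venous genes detected, from cells with 1, which are not members, through 2 and 3 to 4 or 5. These levels are a description, because deeper cells show more venous genes: median depth rose from 8234 through 11698 to 16918 UMIs in control and from 8804 through 10604 to 21419 UMIs in cKO members. Cxcl12, a chemokine of capillaries and arteries, fell from 4246 through 3176 and 2038 to 796 CPM in the control, and from 5284 through 4147 and 3060 to 1550 CPM in the cKO library. Alpl fell from 248 through 93.1 and 52.8 to 19.7 CPM and from 151 through 43.5 and 36.7 to 16.1 CPM. Cells with 1 venous gene include arterial cells, which the rule keeps out of the members. The arterial gene Gkn3 had 233 CPM there and 3.10 CPM at 2 venous genes in the control, and 118 and 0.906 CPM in the cKO library. The first fall of Cxcl12 and Alpl thus cannot be read as a change among venous cells alone. Nrp2 had 44.1, 50.7, 97.1 and 212 CPM in control and 34.3, 48.0, 84.8 and 152 CPM in cKO cells. For these genes both libraries thus showed the same order, with Cxcl12 and Alpl falling as Nrp2 increased. Other genes of the zonation lists did not all follow their label. Itih5 of the capillary list increased from 860 CPM at 2 to 1554 CPM at 4 or 5 venous genes in the control, and from 894 to 1441 CPM in the cKO library. Emcn of the venous list did not increase, with 468 and 370 CPM in control and 436 and 408 CPM in cKO cells.

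Tmsb10, an actin-binding thymosin, increased from 771 through 1350 and 1595 to 2525 CPM in the control and from 826 through 1634 and 2134 to 2611 CPM in the cKO library. Vcam1 had 66.4, 40.4, 129 and 578 CPM in control and 80.9, 99.7, 291 and 514 CPM in cKO cells. The level of the venule adhesion gene was thus highest in cells with all or nearly all of the venous genes, in either library.

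**Figure D3:**
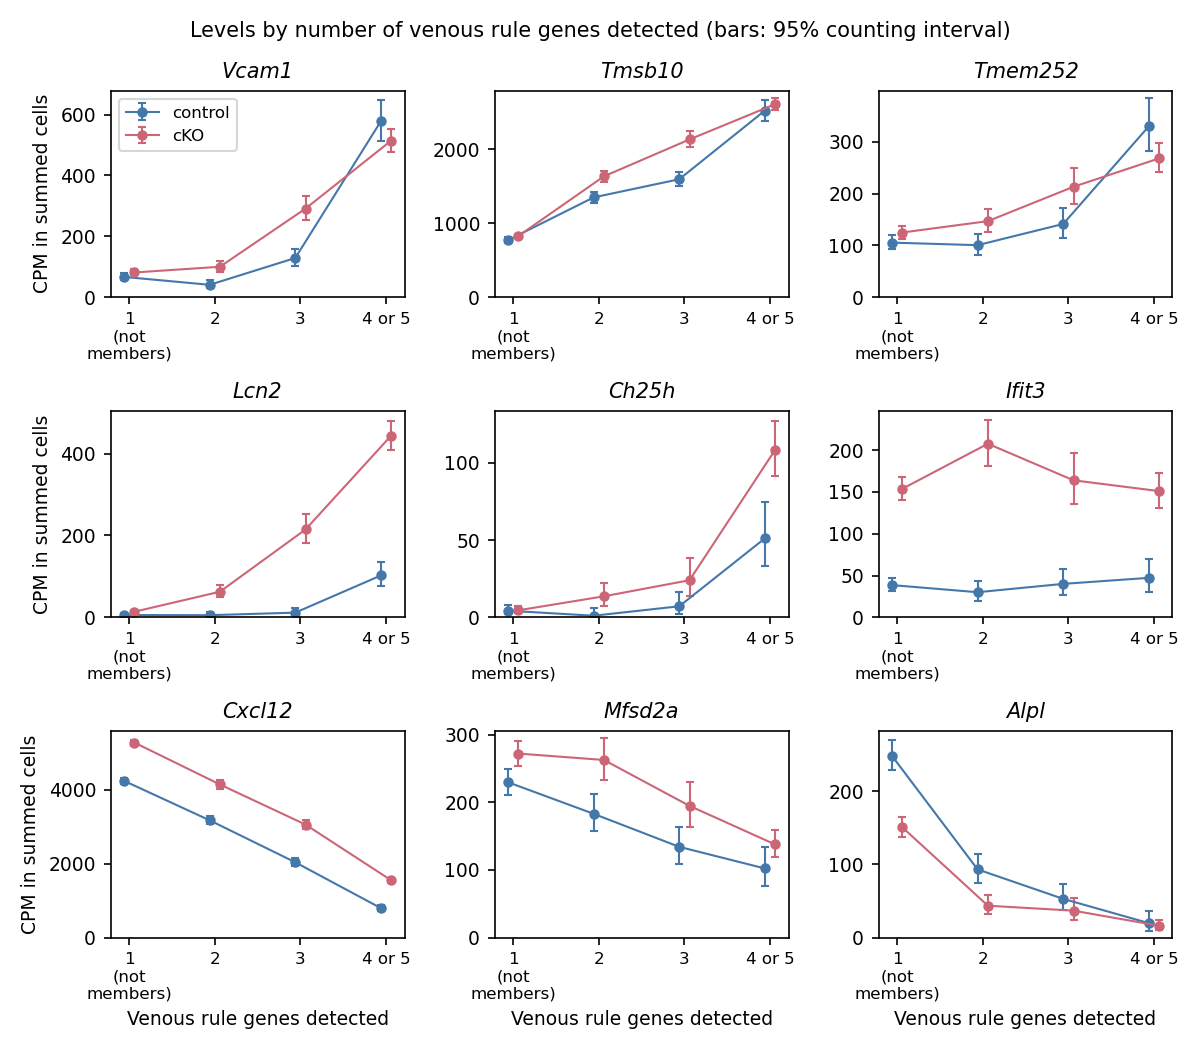
Level of 9 genes in CPM, on a linear axis, by the number of venous genes detected (cells with 1 are outside the rule), for each library with counting intervals. Tmsb10 and Vcam1 are highest with 4 or 5 venous genes, Cxcl12 and Alpl lowest, and Ifit3 is higher in cKO cells at each step.

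Between genotypes, a gene counted as higher or lower in cKO venous cells at 1.5-fold or more with its interval excluding equality. Of 6533 genes, 210 were higher (3.21%) and 283 lower (4.33%), and the median log2 ratio was 0.07. Scaled to that median, the counts were 143 and 350. Of the measured genes, 26 of 33 interferon genes, 6 of 16 acute-phase genes and 2 of 11 adhesion genes were higher in the cKO library. Among the lower genes were Mt1, Mt2, Adamts1, Angpt2 and Klf4. The pooled sums also hold RNA of other cells. Members with at least 60% of another class's markers numbered 45 of the control (25.7%) and 38 of the cKO cells (16.2%), 22 and 20 of them with astrocyte and 12 and 6 with oligodendrocyte markers. In the control library 8 members had choroid plexus markers, and none in the cKO library. Mixed-marker members were deep, with medians of 13266 UMIs in control and 15392 UMIs in cKO cells. The 8 with choroid plexus markers had a median of 41274 UMIs. Their weight in the pooled sums is thus greater than their share of cells. Without these mixed-marker members, 121 genes were higher (1.92% of 6310) and 176 lower (2.79%), of which 90 and 70 were among the genes called with all members.

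Of 36 interferon genes 33 were measured in venous cells, and 26 were higher and none lower, beside 3.21% higher over all genes. Their median log2 ratio was 0.90. Ifit3 (ENSMUSG00000074896, mm10 chromosome 19, 34583531 to 34588731, plus strand) encodes an antiviral protein with tetratricopeptide repeats. It had 37.2 CPM in control (81 UMIs) and 174 CPM in cKO cells (551 UMIs), a 4.66-fold difference (log2 2.22, 1.88 to 2.57). It had a UMI in 25.1% and 60% of cells, and in 10.5% and 20.3% after thinning, against 0.293% and 1.04% of thinned oligodendrocyte-marked cells. Ifit3b, a near-identical copy whose reads may be split with Ifit3, had 10.6 and 78.4 CPM (2.89, 2.27 to 3.57). Irf7, the transcription factor that amplifies the type I interferon response, had 30.3 and 152 CPM (2.33, 1.95 to 2.72). Ifi27l2a had 22.5 and 162 CPM (2.85, 2.43 to 3.30), with 19.8% of the cKO UMIs from 1 cell. These 4 genes had the highest ratios of the list, and their intervals in the 2 libraries did not overlap. Isg15, the ubiquitin-like modifier whose promoter is printed above, was chosen after its values were seen, and had 130 and 404 CPM (1.64, 1.45 to 1.83). When the rule was applied to thinned cells, Irf7 was at 0.95 (-0.26 to 2.31) and Ifi27l2a at 0.65 (-0.53 to 1.95), both with intervals reaching 0, while Ifit3 was at 2.82 (1.36 to 4.76).

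Interferon genes were higher in the other endothelial classes too. In capillary cells 23 of 33 measured members were higher (median 0.91), beside 4.22% higher and 4.34% lower of 6654 genes. In arterial cells it was 22 of 33 (median 0.76), beside 2.76% higher and 4.5% lower of 6531 genes. Ifit3 had log2 ratios of 2.01 (1.37 to 2.72) in capillary and 1.60 in arterial cells, where the interval began at 1.21. Among members it was higher in cKO cells at each number of venous genes, with 30.0 against 208 CPM at 2, 40.0 against 164 CPM at 3 and 47.2 against 151 CPM at 4 or 5. Leaving out mixed-marker members, 23 of 33 interferon genes were higher, with a median of 0.83. The microglial markers, whose cells respond to interferon, summed to 733 CPM in control and 515 CPM in cKO venous cells, and their part in the result was not tested.

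Acute-phase genes had fewer members higher. Of 30 genes 16 were measured, and 6 were higher and none lower (median 0.45), beside 3.21% higher over all genes. In members without other markers, only Lcn2 and Lrg1 were higher (median 0.26), beside 1.92% higher over all genes. Lrg1 had 4.49 CPM in control and 38.2 CPM in cKO cells there. It met the minimum mean of 20 CPM only through the cKO library, so its call is not independent of that filter. Lcn2 (ENSMUSG00000026822, mm10 chromosome 2, 32384633 to 32388252, minus strand) encodes the siderophore-binding lipocalin 2. It had 29.9 CPM (65 UMIs) in control and 260 CPM (827 UMIs) in cKO venous cells, an 8.71-fold difference (log2 3.12, 2.76 to 3.51). The share of cells with a UMI was 10.9% and 40.9%, or 2.91% and 16.8% after thinning, and none of the thinned oligodendrocyte-marked cells had one. At 2, 3 and 4 or 5 venous genes it had 5.17, 11.4 and 102 CPM in control and 62.5, 215 and 444 CPM in cKO cells. The cKO level was thus higher at each step, and the level was highest at 4 or 5 venous genes in both libraries, while the log2 ratio was lower there (2.12, 1.71 to 2.56) than at 2 (3.60, 2.30 to 5.26) or 3 (4.23, 3.22 to 5.47). Capillary cells had 3 UMIs in either library and arterial cells 7 and 20. Lrg1, a secreted glycoprotein that modulates TGF-beta signalling, had 9 and 118 UMIs in venous cells (3.17, 2.19 to 4.33), of which 1.14% and 15.7% had one. With cells thinned before summing the Lrg1 ratio was 1.57 (-1.77 to 7.19). Capillary cells had no Lrg1 UMI and arterial cells 1 in either library. Whether the ratios of venous cells differ from those of the other classes was not tested, since the counts there are too low.

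Of the other acute-phase genes, Cebpd, a transcription factor induced by cytokines, had a ratio of 0.75 (0.59 to 0.90) and Pglyrp1, a peptidoglycan-binding protein, 0.70 (0.61 to 0.78). With mixed-marker members left out these were 0.48 and 0.45, below 1.5-fold. GGGNNTTCC, a core of the NF-kappaB site, was found on either strand in promoters of 1 of 11 measured acute-phase genes with an entry and of 6.58% of all genes. Only this fixed spacing was searched, so sites with another spacing were missed. The count thus does not show that the other promoters lack such a site.

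Of 22 venous genes outside the rule 16 were measured. Lrg1 and Ch25h met the minimum mean of 20 CPM only through the cKO library. Lrg1, Lcn2, Ch25h, Icam1 and Vcam1 were higher in cKO cells and none lower (median 0.28), beside 3.21% higher over all genes. The same 5 were higher without members holding other markers, with a median of 0.12. Of 17 leukocyte adhesion genes 11 were measured, and Icam1 and Vcam1 were higher (median 0.17), beside the same 3.21% over all genes. Icam1, the ligand of leukocyte beta-2 integrins, had 24.8 and 57.9 CPM (1.22, 0.78 to 1.69), and a UMI in 17.7% and 30.2% of cells. With the rule on thinned cells the Icam1 ratio was 0.48 (-1.02 to 2.16). Vcam1 had 194 and 321 CPM (0.72, 0.56 to 0.89). With the same weight given to cells with 2, 3 and 4 or 5 venous genes, a choice made after the data were seen, the Vcam1 ratio was 0.23 (0.06 to 0.40), below 1.5-fold. It was also below that fold without Scrublet doublet calls (0.56, 0.39 to 0.73). By number of venous genes, Vcam1 was higher in cKO cells at 2 (40.4 and 99.7 CPM; 1.30, 0.77 to 1.87) and at 3 (129 and 291 CPM; 1.18, 0.81 to 1.55), and at 4 or 5 the libraries stood at 578 and 514 CPM (-0.17, -0.37 to 0.03). Ch25h, which makes the antiviral oxysterol 25-hydroxycholesterol, had 14.7 and 56.7 CPM (1.95, 1.40 to 2.54), and after thinning before summing 1.23 (-0.15 to 2.84). Esam, F11r, Icam2, Cd34 and 4 others of the adhesion list lay between -0.14 and 0.33.

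**Figure D4:**
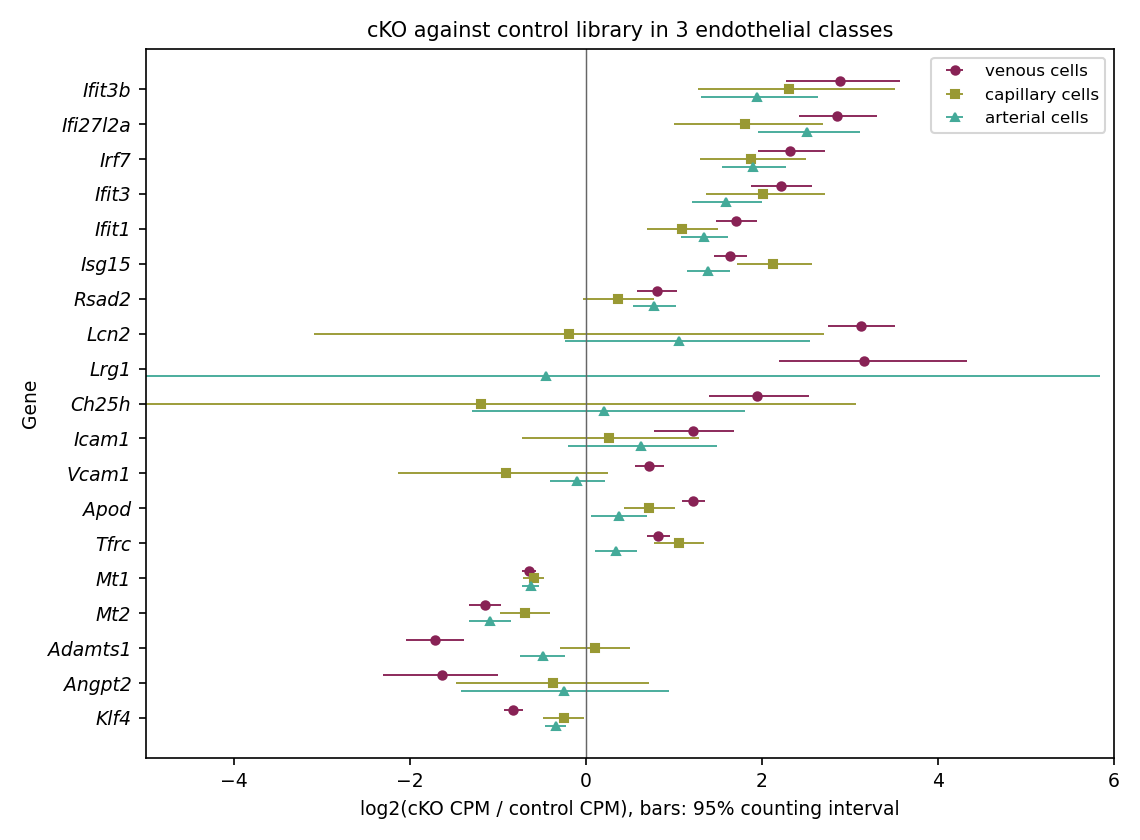
Log2 ratio of cKO over control for named genes in venous, capillary and arterial endothelial cells, with counting intervals. Ifit3 lies above 0 in the 3 classes; Lcn2 is at 3.12 in venous cells, while Lrg1 and Ch25h in the other classes rest on few UMIs, with bars running past the axis limits or no point where no UMI was found.

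Class I antigen presentation genes, which display peptides to T cells, were higher in part. Of 16 genes 14 were measured, and 5 were higher and none lower (median 0.51), beside 3.21% higher over all genes. Among the 5 were H2-D1 (706 and 1103 CPM), H2-K1 (682 and 1061 CPM) and H2-T23 (154 and 271 CPM). With such mixed-marker members left out, none of 15 was past 1.5-fold (median 0.39). The class II gene Cd74 had 6 UMIs in control and 207 in cKO members, 73.4% of the latter from 1 cell, and the class II gene H2-Eb1 16 and 124, 66.1% of them from 1 cell. The chemokine gene Cxcl10 had 2 and 128 UMIs, 93.0% of the latter from 1 cell. These ratios describe single cells. Cd74, H2-Eb1 and Cxcl10 also met the minimum mean of 20 CPM only through the cKO library. Of 6 measured chemokine and cytokine genes, Csf1, the growth factor of macrophages, was the other one higher (43.7 and 77.8 CPM; 0.83, 0.49 to 1.19), at 0.46 without members holding other markers.

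Barrier genes differed little. Beside the counts of this paragraph, 3.21% of all measured genes were higher in cKO venous cells and 4.33% lower. Of 23 transporter genes 22 were measured and 1 was higher, Tfrc, the transferrin receptor (303 and 534 CPM; 0.82, 0.69 to 0.95), with a list median of 0.28. Capillary cells had a Tfrc ratio of 1.06 (0.78 to 1.35), while with the rule on thinned cells the venous ratio was -0.18 (-0.65 to 0.29). No gene of 12 junction genes (median 0.14), 18 Wnt pathway genes (0.25), 14 TGF-beta and BMP genes (0.08), 17 endothelial transcription factors (0.14) or 11 haemostasis genes (0.17) was past 1.5-fold. Of 14 capillary genes Tfrc alone was higher (median 0.24). Of 11 measured arterial genes, Mgp (0.94) and Eln (0.69) were higher and Dll4, Alpl (-1.06) and Clu (-1.51) lower. Clu, which astrocytes also express, was at -0.11 (-0.39 to 0.17) with a mitochondrial limit of 5% and at -0.05 (-1.30 to 1.26) with the rule on thinned cells, where Alpl was at -0.64 (-2.38 to 1.10). Cdkn1a, the cell cycle inhibitor p21, had 474 and 573 CPM (0.27, 0.16 to 0.39), and of 8 measured genes of the cell cycle inhibitor and p53 list Gadd45b alone was higher (0.91). None of 3 measured cell cycle genes was called.

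Adamts1, Angpt2 and Klf4 were lower in cKO venous cells, each the only gene of its list past the fold. The medians of the basement membrane, VEGF and angiopoietin, and flow lists were 0.05, 0.06 and -0.04. Over all genes 4.33% were lower, so these are values of single genes and no result about their lists. Adamts1 (ENSMUSG00000022893, mm10 chromosome 16, 85793827 to 85803113, minus strand) encodes a secreted protease that cleaves proteoglycans. It had 114 CPM (249 UMIs) in control and 34.9 CPM (111 UMIs) in cKO cells (log2 -1.71, -2.05 to -1.38). It was lower at each number of venous genes, with 139 against 42.6 CPM at 2, 110 against 35.3 CPM at 3 and 74.7 against 28.6 CPM at 4 or 5. In capillary cells the Adamts1 ratio was 0.10 (-0.29 to 0.50) and in arterial cells -0.49 (-0.75 to -0.23). It was the only one of 14 measured basement membrane genes past the fold. Angpt2, the angiopoietin that destabilises vessels, had 66 and 31 UMIs (log2 -1.64, 3.11-fold lower), and was 1 of 10 measured VEGF and angiopoietin genes past the fold. By number of venous genes, Angpt2 had 50.7 and 13.6 CPM at 2, 21.4 and 8.48 CPM at 3, and 3.93 and 7.33 CPM at 4 or 5. The levels at 3 and at 4 or 5 rest on few UMIs, so whether the difference varied with that number was not resolved.

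Klf4, a transcription factor induced by laminar flow, had 704 and 397 CPM (-0.83, -0.94 to -0.72), against -0.25 in capillary and -0.34 in arterial cells, and was 1 of 8 flow genes past the fold. Dll4, a Notch ligand, was lower (-0.84, -1.30 to -0.39) and Mfng, a modifier of Notch, higher (0.73, 0.34 to 1.13), while the other 7 of 9 Notch genes were not called. With cells thinned before summing, Dll4 was at -0.05 (-1.36 to 1.30) and Mfng at 0.18 (-0.82 to 1.23). Of 16 immediate early genes, Ier3 was higher (1.22, 0.99 to 1.46) and Nr4a1 lower (-0.82, -1.20 to -0.44), with a list median of -0.16. Without mixed-marker members 1 of the 16 was higher and 5 lower (median -0.44). Of 12 heat-shock genes Hsph1 was lower (list median -0.33), and of 13 hypoxia genes Bnip3 was higher. Over all genes 3.21% were higher and 4.33% lower with all members, so a single call is no result about its list.

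Apod, an apolipoprotein gene named after its values were seen, was higher in cKO venous cells (295 CPM in control and 687 CPM in cKO; log2 1.22, 1.09 to 1.35). In capillary and arterial cells Apod had log2 ratios of 0.72 and 0.37. Apod is also an oligodendrocyte transcript, found in 94.1% and 96.4% of thinned oligodendrocyte-marked cells. Without mixed-marker members it had 260 CPM in control and 704 CPM in cKO venous cells (1.44, 1.27 to 1.61). The part of oligodendrocyte RNA in this difference was not tested.

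Of 3 metallothioneins, metal-binding proteins induced by zinc and glucocorticoids, Mt1 and Mt2 were lower in the cKO library and Mt3 was not called. Mt2 had 283 and 128 CPM (-1.14, -1.33 to -0.96) and Mt1 1180 and 756 CPM (-0.64, -0.72 to -0.56), with 25.4% of the cKO Mt1 UMIs from 1 cell. Without members holding other markers the ratios were -2.06 and -1.73, and with at least 3 venous genes Mt1 was at -0.51, short of 1.5-fold. Mt3 had 460 and 526 CPM (0.19, 0.08 to 0.31). Its ratio was 1.16 (0.95 to 1.38) with a mitochondrial limit of 5%, 0.53 (0.39 to 0.67) without Scrublet calls and -0.78 (-1.19 to -0.36) without mixed-marker members. Mt1 and Mt2 are abundant in astrocytes, whose 10 markers summed to 1498 and 954 CPM in venous cells. The part of astrocyte RNA in the result was not tested. Capillary cells had ratios of -0.69 for Mt2 and -0.59 for Mt1, and arterial cells -1.09 and -0.63.

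The lowest ratios of all were those of choroid plexus genes. Ttr, transthyretin, had 36049 CPM in control venous cells and 2 UMIs in the cKO sum. Thinned to 2000 UMIs, 75.6% of control venous cells and 82.5% of control oligodendrocyte-marked cells had a Ttr UMI. The 7 choroid plexus markers summed to 39969 and 97.3 CPM, with Kl, Prlr and Kcnj13 at 0 in the cKO sum. Prlr, Kcnj13, Sostdc1, Htr2c, Tmem72, Car12, Slc4a10 and Sulf1 were also among the 10 lowest. Likewise the ependymal genes Tmem212 and Ccdc153 were among the 10 highest, at 2.82 and 2.50. Without members holding other markers these stood at -1.36 and -3.20. The part of choroid plexus and ependymal RNA in the other differences was not tested, beyond the values given without those members.

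Plxnb2, the floxed gene, had 40.0 CPM (87 UMIs) in control and 21.4 CPM (68 UMIs) in cKO venous cells (-0.90, -1.38 to -0.43). A UMI was found in 16.6% and 14.9% of cells. Without members holding other markers the ratio was -0.07 (-1.01 to 0.91), and with a mitochondrial limit of 5% it was 0.01 (-0.68 to 0.74). Cx3cr1, the microglial gene that carries the Cre, had 76.8 and 23.6 CPM (-1.70, -2.11 to -1.30), with 48.0% of the cKO UMIs from 1 cell. Plxnb2 and Cx3cr1 thus fell together in the pooled sums, and their level in venous cells alone was not resolved. Of 12 measured plexin and semaphorin genes, Sema6d was the other one called lower (-0.65, -1.22 to -0.09), beside 4.33% lower over all genes. With the rule on thinned cells Sema6d was at 0.039.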

How the data were processed

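Per the file headers, the authors deposited unnormalized UMI counts for each gene and barcode. Cell Ranger 7.1.0 and genome build mm10 are named in the submitters' processing notes. Which annotation release was used, and whether introns were counted, is not given in the sources used here. Barcodes of the control matrix had been filtered by the authors, unlike those of the cKO matrix. Both libraries were filtered alike to barcodes with at least 1000 UMIs, 500 genes and at most 10% mitochondrial UMIs. The members, gene lists and lists of other-cell markers were chosen with earlier results of these data known.

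Class totals of UMIs in each library were scaled to CPM, over totals of 2174883 control and 3175883 cKO venous UMIs. CPM has exact Poisson, shares have exact Clopper-Pearson and ratios have exact conditional 95% intervals, all for counting error only. Compared genes had a mean of at least 20 CPM and 20 UMIs over both sums. A gene low in 1 library can meet this only through the other, which favours a call. Lrg1, Ch25h, Ifit3b, Cd74, H2-Eb1 and Cxcl10, among others, were under 20 CPM in control venous cells. Named genes were those of the rule, the 12 highest and 8 lowest against capillary cells, the 10 highest and 10 lowest between genotypes, up to 4 of each list by size of ratio, and Plxnb2 and Cx3cr1. Genes named outside that rule as examples of lists were chosen after their values were seen. Mitochondrial, ribosomal protein, haemoglobin, immunoglobulin, Gm, Rik and sex-linked genes were not eligible for these ranks. Some genes that this rule names are not reported here. Doublets were kept, and leaving out Scrublet calls (scanpy 1.11.5, expected share 6%) was an alternative. It called 22 of 175 control and 14 of 235 cKO members, 22 and 13 of which also held other-cell markers. Coordinates come from GENCODE vM21, which holds 99.6% of the files' gene identifiers, and promoters from RefSeq. The ratio steps ran in scipy 1.17.1 under Python 3.11.15 and were tested on simulated Poisson sums. These hold no spread between cells and no RNA of other cells, so that test covers counting error only. It used the 1.5-fold limit for venous against capillary cells too.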

Additional observations from a re-analysis of the deposited data

Results flagged for a closer look

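Bnip3, a mitophagy gene induced by hypoxia, was higher in cKO venous cells (log2 ratio 0.59) and lower in cKO capillary cells (-0.58), with both counting intervals excluding equality. Gria2, a glutamate receptor subunit gene of neurons and glia, was lower in cKO venous cells (-0.68) and higher in cKO arterial cells (0.75). Each was singled out because the classes went opposite ways. Neither difference between classes was tested, since each class has 1 library per genotype.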

How the results depend on the processing

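No paired analysis was possible because each genotype has 1 library, and for the same reason no replicate could be left out. Depth limits the marker rule. Venous cells were 23.6% of control and 26.8% of cKO endothelial cells, 9.85% and 14.0% with at least 3 venous genes (0.905% and 2.28% of kept cells), and 9.13% and 10.9% with the rule on cells thinned to 2000 UMIs (0.978% and 2.27% of kept cells). Their share of kept cells was 2.81% and 5.77% with a mitochondrial limit of 5%, and 1.65% and 3.74% without mixed-marker cells. The cKO share was the higher one under each alternative run. Leaving out mixed-marker cells and weighting cells by venous gene number were chosen after seeing the data.

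Against capillary cells, 27 genes were higher and 134 lower. The higher count was 49 with at least 3 venous genes, 15 with cells thinned before summing, 16 against all other endothelial cells, 16 with a minimum of 50 CPM and 50 UMIs, and 53 with no minimum. The lower count was 35 without Scrublet calls, 25 with thinned cells, 47 with the mean of single-cell CPM, 47 against all other endothelial cells, 56 and 325 with the stricter and no minimum, and 14 without mixed-marker cells. Without Scrublet calls the cKO ratios of Mobp and Cnp were 0.054 and 0.016.

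Between genotypes, 210 genes were higher and 283 lower. The counts were 136 and 173 with the 5% limit, 108 and 66 with the thinned rule, 85 and 84 with the stricter minimum, 474 and 908 with no minimum, and 121 and 176 without mixed-marker cells, and the lower count was 183 with thinned cells. The called genes changed too. Those also called in the main comparison were 100 of 136 higher and 100 of 173 lower genes with the 5% limit. With the thinned rule they were 31 of 108 and 14 of 66, and with cells thinned before summing 66 of 187 and 66 of 183. The share of higher among called genes was 42.6%, 62.1% with the thinned rule and 29.0% scaled to the median ratio. The interferon median of 0.90 was 0.63 with the thinned rule and 0.75 with the mean of single-cell CPM. With the thinned rule, Cd74 was at -0.22, Tfrc at -0.18, Plxnb2 at 0.17 and Sema6d at 0.039. Tap1 was at -0.21 with thinned cells, Plxnb2 at 0.015 with the 5% limit, and Tmem212 and Ccdc153 at -1.36 and -3.20 without mixed-marker cells. Fewer cells and UMIs remain after thinning, and the cause of the other changes was not tested.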
